A study of Mus musculus with 4 samples.

Results

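Genes that act directly beneath the T-cell receptor were followed through mouse thymus: Lck, Fyn, Zap70, Lat, Lcp2, Plcg1, Prkcq, Vav1 and Themis. They were chosen by symbol, and all 9 were found among the 10598 gene symbols of the table. All 9 also passed a filter on low values (a mean of at least 10 normalised counts over the libraries), which kept 10587 genes. Thymus RNA had been sequenced from C57BL/6J mice in 4 groups of 1 library each, named wild type (WT) and CAMKIIγ-/- (knockout), each given either vehicle or N-methyl-N-nitrosourea (MNU), an alkylating mutagen used to raise T-cell lymphoma in the mouse. It had been injected once into the peritoneum at 75 mg/kg in mice aged 4 to 5 weeks, and the groups not given it are labelled as vehicle; the labels give 6 months as the treatment time for all 4 groups. The labels do not say how the CAMKIIγ allele was made, how many animals a library holds or whether a given thymus carried a tumour. The study asked how deletion of CAMKIIγ acts on MNU-induced lymphoma. The groups are called vehicle wild type, MNU wild type, vehicle knockout and MNU knockout below. No group has a replicate, so the differences carry neither a test nor an error.

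The proximal T-cell receptor pathway carries the signal from receptor to cytoplasm. As background, the Src-family kinase LCK, which binds the CD4 and CD8 coreceptors, and its relative FYN phosphorylate the CD3 and zeta chains. The kinase ZAP-70 then docks on them and phosphorylates the membrane scaffold LAT and the cytosolic adaptor SLP-76, encoded by Lcp2. On that scaffold assemble phospholipase C gamma 1 (Plcg1), which makes the second messengers inositol trisphosphate and diacylglycerol, and VAV1, a guanine nucleotide exchange factor that acts on the actin cytoskeleton. Protein kinase C theta (Prkcq) relays diacylglycerol towards NF-kB, and THEMIS, a GRB2-binding protein of the T lineage, is needed for positive selection in the mouse thymus. Thymocytes use the same machinery to pass pre-T-cell receptor and positive selection checkpoints.

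The promoter windows below belong to the 3 genes that differed at least 2-fold between the wild-type libraries and to Lck, which has annotated starts far apart. All were taken from RefSeq on GRCm38.p6, and each runs from 250 bases before to 50 bases after an annotated start, 5′ to 3′ on the gene's strand. Capitals mark matches, on either strand, to letters searched for factors of the T lineage. The letters AGGAAG stood for the ETS family, and TGTGGT for the RUNX family. For basic helix-loop-helix proteins such as E2A and HEB the E-box letters CAGNTG were searched, where N is any base. For GATA factors the letters were AGATAA, and for the TCF family they were CTTTGA. The last motif, TGGGAA, is a core that RBPJ and Ikaros share.
Zap70, first start (GRCm38.p6 chr1:36761548-36761847, plus strand): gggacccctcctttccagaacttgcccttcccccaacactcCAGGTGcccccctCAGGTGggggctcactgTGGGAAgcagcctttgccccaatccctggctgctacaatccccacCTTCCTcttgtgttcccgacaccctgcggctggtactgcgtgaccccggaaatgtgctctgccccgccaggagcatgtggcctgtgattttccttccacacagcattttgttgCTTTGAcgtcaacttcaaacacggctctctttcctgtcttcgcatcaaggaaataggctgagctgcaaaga
Lcp2 (GRCm38.p6 chr11:34046678-34046977, plus strand): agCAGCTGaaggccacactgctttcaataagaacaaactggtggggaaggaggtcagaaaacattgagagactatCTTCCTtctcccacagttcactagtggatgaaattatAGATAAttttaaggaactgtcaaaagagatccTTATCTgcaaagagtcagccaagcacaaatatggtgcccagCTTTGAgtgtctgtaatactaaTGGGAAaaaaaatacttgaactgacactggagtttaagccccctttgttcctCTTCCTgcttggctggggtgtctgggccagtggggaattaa
Themis, first start (GRCm38.p6 chr10:28668110-28668409, plus strand): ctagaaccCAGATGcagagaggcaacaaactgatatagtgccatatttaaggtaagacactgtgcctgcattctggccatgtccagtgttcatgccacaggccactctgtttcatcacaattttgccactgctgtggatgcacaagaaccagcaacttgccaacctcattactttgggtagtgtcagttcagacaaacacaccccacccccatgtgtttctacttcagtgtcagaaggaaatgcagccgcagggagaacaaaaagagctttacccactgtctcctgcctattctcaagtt
Lck, upstream start (GRCm38.p6 chr4:129573592-129573891, minus strand): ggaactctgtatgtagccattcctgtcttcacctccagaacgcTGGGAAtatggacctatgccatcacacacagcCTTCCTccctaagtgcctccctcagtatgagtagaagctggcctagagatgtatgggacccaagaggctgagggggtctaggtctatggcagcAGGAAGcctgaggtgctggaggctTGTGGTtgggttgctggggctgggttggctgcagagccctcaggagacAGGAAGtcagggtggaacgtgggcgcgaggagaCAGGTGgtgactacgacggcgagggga
Lck, downstream start (GRCm38.p6 chr4:129558323-129558622, minus strand): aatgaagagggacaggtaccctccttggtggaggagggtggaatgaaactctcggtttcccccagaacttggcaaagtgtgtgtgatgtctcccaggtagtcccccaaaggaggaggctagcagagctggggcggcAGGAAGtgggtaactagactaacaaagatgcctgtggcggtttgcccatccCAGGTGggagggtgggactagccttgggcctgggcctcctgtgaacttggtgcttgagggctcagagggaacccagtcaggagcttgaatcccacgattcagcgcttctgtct

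The windows differed in which of these letters they held. The window at the first Zap70 start held 1 ETS match, 2 E-box matches, 1 TCF match and 1 RBPJ or Ikaros core. Windows at the other Zap70 starts, not shown, differed: the second held 2 ETS and 1 RUNX match, the third 1 E-box match. The window at the first Themis start held 1 E-box match and none of the other motifs. The Lcp2 window held 2 ETS, 2 GATA, 1 TCF and 1 core match, together with the palindrome CAGCTG, which matches the E-box on both strands. In RefSeq, 13 windows matched the 9 genes. ETS letters were in 8 of the 13, against 35.4% of 32851 windows of all genes, and E-box letters were in 10 of the 13, against 51.4%. RUNX letters were in 3 of 13 (16.8% of all windows), GATA in 1 (11.2%), TCF in 3 (16%) and the RBPJ or Ikaros core in 4 (25.6%). Windows of the same gene can overlap, and a match describes letters, not binding. Lck is known to use a distal promoter in mature T cells and a proximal promoter in immature thymocytes. The table has 1 value per symbol, so transcripts from the starts of a gene, those of Lck and Zap70 among them, are summed in it.

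Facts of the libraries that touch every value are these. The normalised counts summed to between 32911362 and 34836257 per library. Camk2g, which encodes CAMKIIγ, stood at 2749 in vehicle wild type, 3173 in MNU wild type, 489 in vehicle knockout and 29.7 in MNU knockout. The Camk2g value of the vehicle knockout library was 17.8% of that in vehicle wild type and 15.4% of that in MNU wild type. A share was taken from 42 genes, all above 1000 in MNU wild type. They lay more than 20-fold below MNU wild type in both vehicle wild type and MNU knockout, whose mean was the baseline of each gene. Above that baseline, vehicle knockout held a median of 15.4% of the excess in MNU wild type (lowest 13.2%, highest 21.4%). None of the 9 genes is among the 42. For the 9 genes, comparisons that use the vehicle knockout library are given below also with this share of every gene's MNU wild-type level subtracted. Values of other genes and of gene lists in that library are given below without the subtraction. The remainder was then divided by the fraction of the library left after the share, and values called share-subtracted include that rescaling. After this step, Camk2g in vehicle knockout was 1.15. Whether the library holds RNA of MNU wild type was not tested. T-cell markers (10 measured, among them Cd3d, Tcf7, Bcl11b and Thy1) were well above 0 in every library, with summed levels of 224788, 127806, 170419 and 205142 normalised counts in vehicle wild type, MNU wild type, vehicle knockout and MNU knockout. Thymic epithelial markers (15 measured) summed to 130663, 11212, 132674 and 102235 in the same order, and Ctsl alone stood at 8431 in MNU wild type. Of the 15, 13 were at least 2-fold lower in MNU than in vehicle wild type (median log2 difference -7.17), where 14.2% of all genes were. Foxn1, which defines that epithelium, was listed at 0 in MNU wild type.

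MNU wild type was the highest or the lowest library for all 9 genes. For Lat, Plcg1 and Vav1 the margin was small, as they spanned only 1.11-, 1.13- and 1.16-fold over all 4 libraries. In bulk thymus, fewer cells of a type and less RNA per cell cannot be told apart. In MNU wild type 4 genes were above all 3 other libraries (Fyn, Zap70, Lat and Plcg1) and 5 were below all 3 others (Lck, Lcp2, Prkcq, Vav1 and Themis). Of all 10587 genes, 44.4% were above and 43.3% below in the same way, so an extreme position in that library was usual. Zap70 was 2.26-fold higher with MNU in wild type, while Themis was 2.66-fold and Lcp2 2.43-fold lower. In the knockout none of the 9 differed 2-fold with MNU.

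**Figure D1:**
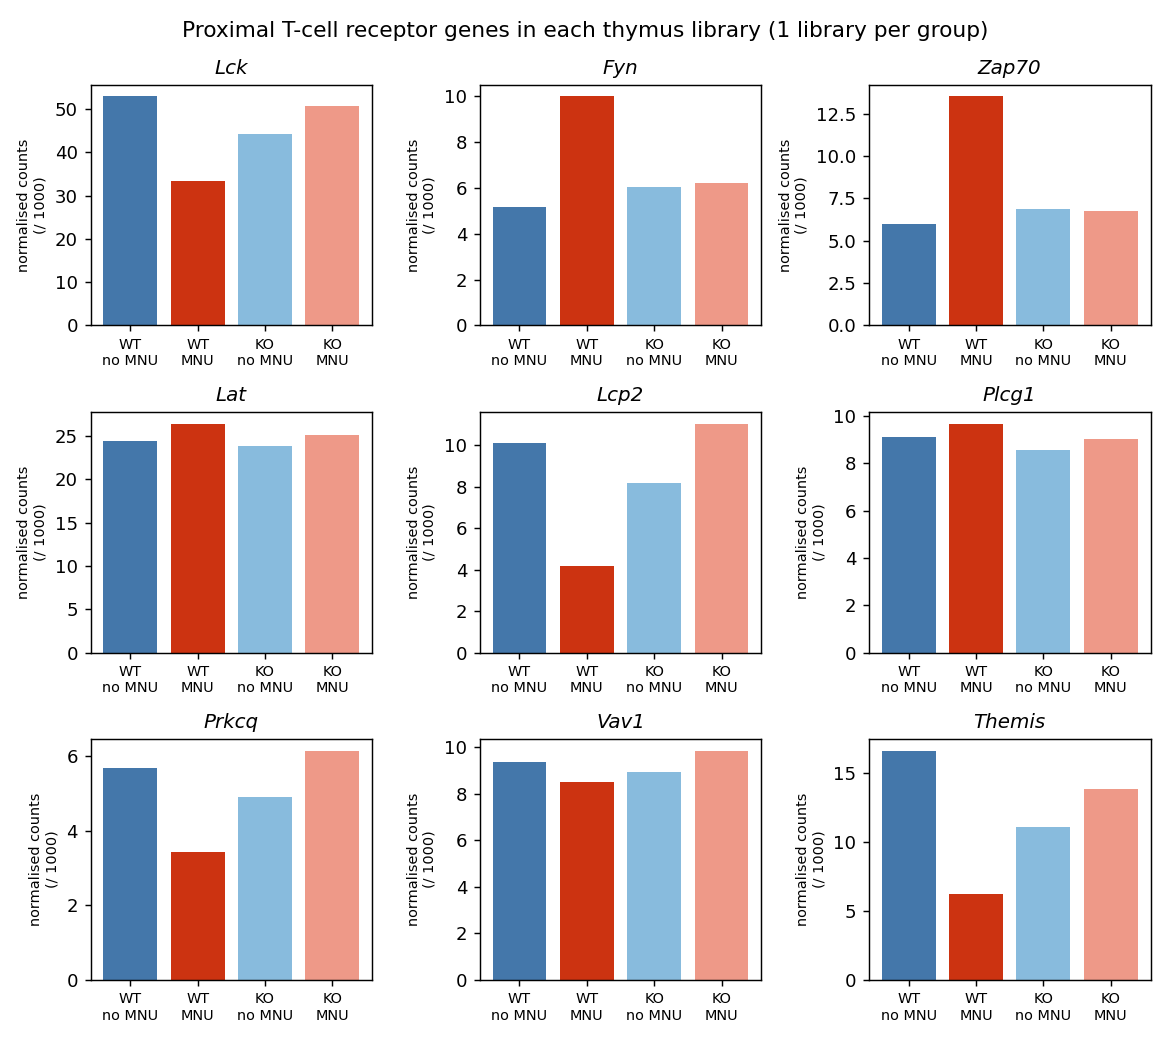
Normalised counts (in units of 1000, axis from 0) of the 9 genes in the 4 thymus libraries, 1 bar per library and no replicates. Zap70 and Fyn are highest and Themis, Lcp2, Prkcq and Lck lowest in MNU wild type, while Lat, Plcg1 and Vav1 vary by less than 1.2-fold over all 4 libraries.

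The Src-family kinases moved apart. Lck stood at 52941 normalised counts in vehicle wild type, 33350 in MNU wild type, 44246 in vehicle knockout and 50617 in MNU knockout. Fyn stood at 5177, 9980, 6037 and 6189 in the same order. Lck was thus lowest, and Fyn highest, in MNU wild type, 1.59-fold lower and 1.93-fold higher than without MNU. Per kilobase of exon, the ratio of Lck to Fyn was 15.2 in vehicle wild type, 4.98 in MNU wild type, 10.9 in vehicle knockout and 12.2 in MNU knockout. The shift came from both genes, and Lck remained the more abundant in each library.

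Zap70, the kinase that reads the phosphorylated receptor chains, had the largest increase of the 9. It stood at 5992 in vehicle wild type, 13525 in MNU wild type, 6866 in vehicle knockout and 6740 in MNU knockout. The 3 libraries other than MNU wild type lay within 1.15-fold of each other. Of all genes, 5.40% had a larger log2 difference with MNU in wild type. Syk, the relative of Zap70 used by B cells and myeloid cells and also by immature thymocytes, ran the other way, at 2725, 1303, 2723 and 3557 in the same order. Per kilobase of exon, Zap70 exceeded Syk 6.88-fold in vehicle wild type, 32.5-fold in MNU wild type, 7.89-fold in vehicle knockout and 5.93-fold in MNU knockout.

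The scaffold and the adaptor did not move together. Lat stood at 24396 in vehicle wild type, 26423 in MNU wild type, 23836 in vehicle knockout and 25099 in MNU knockout, a span of 1.11-fold over all 4. Lcp2 stood at 10081, 4151, 8178 and 11039 in the same order. The Lcp2 value in MNU wild type was under each of the other 3, which themselves spanned 1.35-fold. Per kilobase, the ratio of Lat to Lcp2 was 3.90 in vehicle wild type, 10.3 in MNU wild type, 4.70 in vehicle knockout and 3.66 in MNU knockout.

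Plcg1 and Vav1, whose products assemble on the scaffold, were nearly level, and Prkcq was lower in MNU wild type. Plcg1 stood at 9112 in vehicle wild type, 9682 in MNU wild type, 8543 in vehicle knockout and 9011 in MNU knockout. Vav1 stood at 9375, 8482, 8946 and 9841 in the same order. Those spans were 1.13-fold and 1.16-fold. Prkcq stood at 5689 in vehicle wild type, 3426 in MNU wild type, 4904 in vehicle knockout and 6142 in MNU knockout, which put MNU wild type 1.66-fold below vehicle wild type. Reads from Plcg1 cannot be told apart from those of Zhx3 on the opposite strand, where 379 exonic bases overlap in the GENCODE M21 annotation, since the sources do not state that counting used strand.

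Themis had the largest decrease. It stood at 16580 in vehicle wild type, 6235 in MNU wild type, 11034 in vehicle knockout and 13804 in MNU knockout. Vehicle wild type was the highest, and both knockout libraries lay between the wild-type libraries. Of the 10587 genes, 9.87% had a lower log2 difference with MNU in wild type, and 1.45% had a lower one between knockout and vehicle wild type. The ratio of Zap70 to Themis per kilobase was 1.41 in vehicle wild type, 8.47 in MNU wild type, 2.43 in vehicle knockout and 1.91 in MNU knockout.

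Levels between genes were compared per kilobase of the union of annotated exons, a length that long or unused isoforms can inflate (11.7 kb for Themis, 2.77 to 7.86 kb for the others). Lck was first, Lat was second and Prkcq was last in every library. The order between them differed among libraries. Zap70 ranked 5 in vehicle wild type and 3 in MNU wild type, Fyn 7 and 5, Lcp2 4 and 7, and Themis 6 and 8. In vehicle knockout, Zap70 ranked 4, Lcp2 5, Fyn 6 and Themis 8. In MNU knockout, Zap70 ranked 5, Fyn 6, Lcp2 4 and Themis 7. With no replicates, it is not known which neighbouring ranks differ beyond the spread of animals. In vehicle wild type the closest neighbours were Fyn and Plcg1, at 1187 and 1160 normalised counts per kilobase.

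Comparisons were then read gene by gene. A gene was counted as higher or lower at 2-fold or more on the log2(value + 10) scale, and the counts were set beside the percentage of all 10587 genes past the same line. The comparisons share libraries, so they are not independent of each other. In MNU against vehicle wild type, 1 of 9 was higher (Zap70), where 7.14% of all genes were, and 2 of 9 were lower (Lcp2 and Themis), where 14.2% were. Fyn lay just inside the line, with a log2 difference of 0.95. The median log2 difference of the 9 was -0.14, against -0.01 for all genes.

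In the knockout, MNU went with small differences. None of the 9 was higher, where 0.331% of all genes were, and none was lower, where 2.95% were. Lcp2 had the largest log2 difference (0.43), followed by Prkcq and Themis (0.32 each) and Lck (0.19), while Zap70 stood at -0.03 and Fyn at 0.04. Of the 9 differences 8 were positive, where 5604 of all 10587 genes were. The median of the 9 was 0.14, against 0.01 for all genes. MNU knockout was also set against vehicle wild type, a comparison in which genotype differs as well as MNU. There the same 4 genes gave 0.13 for Lcp2, 0.11 for Prkcq, -0.26 for Themis and -0.06 for Lck. The direction for Themis and Lck thus rested on which untreated library was used. With the share subtracted from the vehicle knockout library, all 9 log2 differences were positive, from 0.10 for Lat to 0.31 for Lcp2. Zap70 turned from -0.03 to 0.25. How many of all genes were positive after that step is not given. Relative to the CD3 genes, 3 of the 9 were higher in MNU than in vehicle knockout (Lcp2, Prkcq and Themis), where 7.37% of all genes were, and 6 were lower, where 92.6% were.

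**Figure D2:**
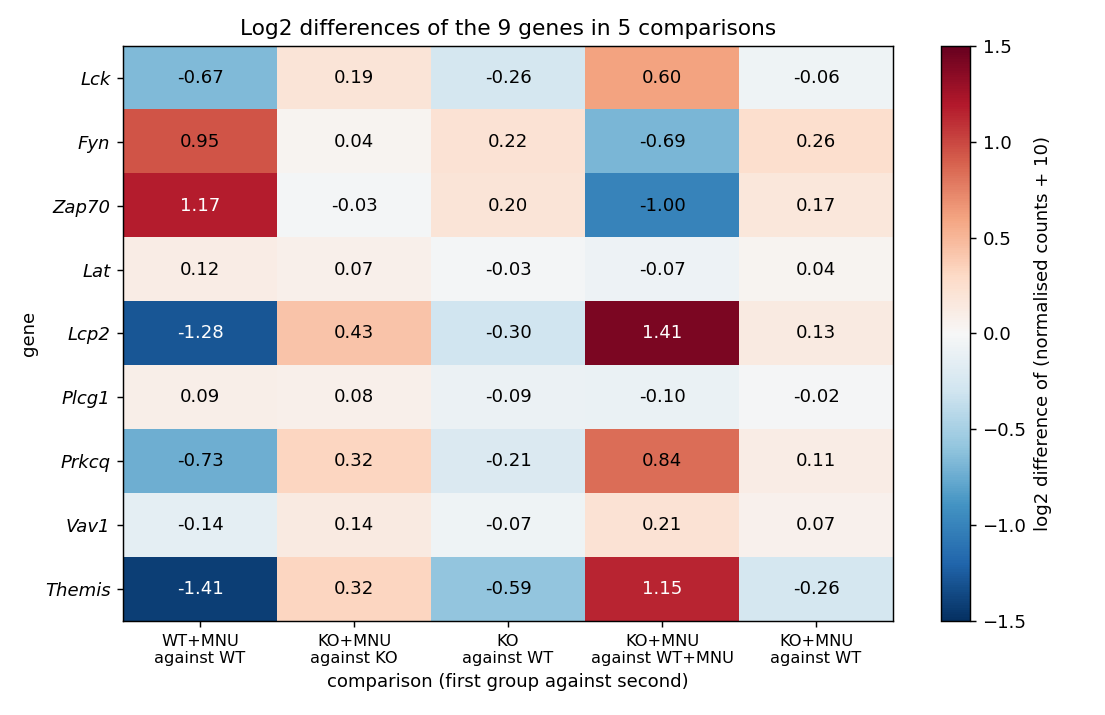
Log2 differences of (normalised counts + 10) for the 9 genes (rows) in 5 comparisons (columns, first group against second), red for higher and blue for lower, from 1 library per group. Values past 1 in size appear only where MNU wild type is one of the groups: Zap70, Lcp2 and Themis, with Zap70 in MNU knockout against MNU wild type, 2.01-fold lower, lying at the line.

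Between the MNU groups, the knockout held more Lcp2 and Themis and less Zap70 than wild type. Lcp2 was 2.66-fold and Themis 2.21-fold higher, so 2 of 9 were counted as higher, where 15% of all genes were. Zap70 was 2.01-fold lower, so 1 of 9 was counted as lower, where 7.37% were. Zap70 was on the line and was no longer counted under upper-quartile scaling, where its log2 difference was -0.97. Prkcq was 1.79-fold and Lck 1.52-fold higher, Fyn was 1.61-fold lower, and Lat, Plcg1 and Vav1 were within 1.2-fold. The median of the 9 was 0.21, against 0.01 for all genes.

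Without MNU, and between MNU knockout and vehicle wild type, no gene of the 9 reached 2-fold. For vehicle knockout against vehicle wild type the background was 2.59% higher and 0.359% lower. Themis was lowest at 66.5% of wild type, then Lcp2 at 81.1%, Lck at 83.6% and Prkcq at 86.2%. Fyn was at 117% and Zap70 at 115%. With the 15.4% share subtracted, Themis was at 71.8%, Lcp2 at 88.4%, Lck at 87.3% and Prkcq at 90.9%, while Fyn was at 103% and Zap70 at 94.4%. Lat, Plcg1 and Vav1 were at 97.7%, 93.8% and 95.4% as deposited and at 95.8%, 91.5% and 96.3% with the subtraction. The Zap70 difference thus changed direction with the subtraction, and the Themis difference stayed the largest of the 9. Relative to the CD3 genes, described below, which moves every log2 difference here up by 0.35, 8 of the 9 were higher in vehicle knockout than in vehicle wild type, where 94.7% of all genes were, and Themis was lower, by 1.18-fold.

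For MNU knockout against vehicle wild type, the background was 1.57% higher and 1.11% lower. Themis was at 83.3% of wild type and Fyn at 120%, and the other 7 genes lay between 95.6% (Lck) and 112% (Zap70). In both knockout libraries, therefore, Themis was the lowest and Fyn the highest of the 9 relative to vehicle wild type. Relative to the CD3 genes Themis was 1.17-fold and Lck 1.02-fold lower than in vehicle wild type, and the other 7 were higher, where 61.1% of all genes were. After subtraction of the share Fyn was still the highest and Themis the lowest.

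**Figure D3:**
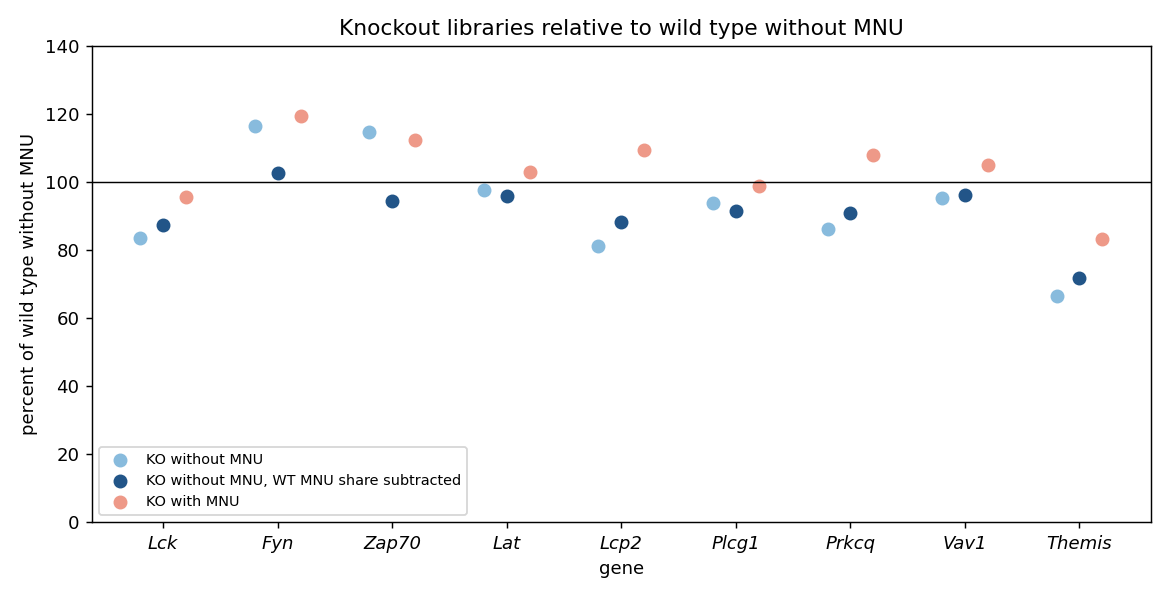
Normalised counts of the 9 genes as a percentage of vehicle wild type (line at 100), from 1 library each. The series are vehicle knockout, the same library after subtraction of the 15.4% share of MNU wild type and rescaling, and MNU knockout. Themis is lowest in all 3 series (66.5%, 71.8% and 83.3%), and Fyn and Zap70 come closer to 100% with the subtraction.

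The MNU differences of the genotypes diverged most for Themis and Lcp2. The difference of the MNU changes, knockout minus wild type, was 1.73 on the log2 scale for Themis, 1.71 for Lcp2, 1.05 for Prkcq, 0.86 for Lck, -0.91 for Fyn and -1.20 for Zap70. It lay between -0.04 and 0.28 for Lat, Plcg1 and Vav1. With the share subtracted it was 1.62 for Themis, 1.59 for Lcp2 and -0.92 for Zap70. None of the 9 passed 2 in size, where 10.3% of all genes did (6.62% upwards and 3.64% downwards).

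The genes were also set against the receptor's own signalling chains. The geometric mean of Cd3d, Cd3e, Cd3g and Cd247 was 12482 in vehicle wild type, 8033 in MNU wild type, 9791 in vehicle knockout and 12131 in MNU knockout. Relative to it, Lck was level between the wild-type libraries (1.02-fold lower with MNU), as was Prkcq (1.07-fold lower). Zap70 was 3.51-fold higher, Fyn was higher by 1.58 on the log2 scale, Lat 1.68-fold and Plcg1 1.65-fold higher, and Vav1, lower as deposited, was 1.41-fold higher. Themis and Lcp2 stayed lower, by 1.71-fold and 1.56-fold. This scaling moved the median of all genes from -0.01 to 0.62 on the log2 scale, and against that shift Lat (0.75) and Plcg1 (0.72) were near the median gene. Between the MNU groups, Vav1, higher in the knockout as deposited, was 1.30-fold lower on this scale, and the differences of MNU changes for Lck (-0.08) and Vav1 (-0.66) turned negative. The order of the 9 genes is the same under both scalings, since a scaling moves all genes together.

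**Figure D4:**
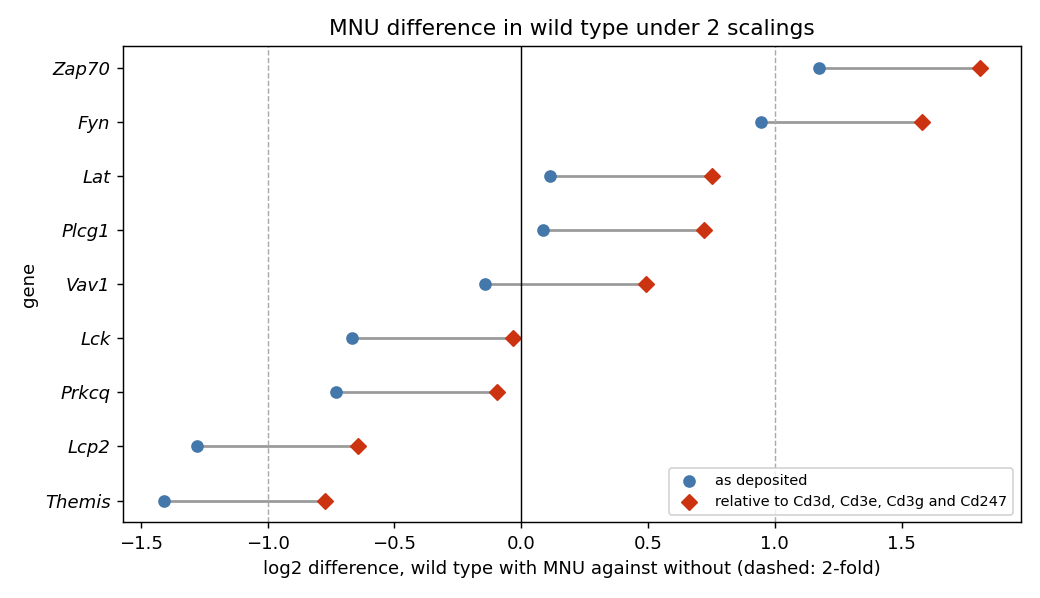
Log2 difference of each gene between wild type with and without MNU, as deposited (circles) and relative to the geometric mean of Cd3d, Cd3e, Cd3g and Cd247 (diamonds), with dashed lines at 2-fold. Zap70 moves from 1.17 to 1.81 and Lck from -0.67 to -0.03, and Themis and Lcp2 are below 0 under both.

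The profiles of the 9 over the 4 libraries fell into like and unlike pairs. Likeness was measured as the root mean square difference of the centred log2 values over the 4 libraries, where 0 means the same shape. Lat and Plcg1 were the closest pair (0.02), then Lck and Prkcq (0.09), Lat and Vav1 (0.11), Fyn and Zap70 (0.12), and Lcp2 and Themis (0.15). Zap70 and Lcp2 were the farthest apart. Among 10471 genes with a mean of at least 100, the nearest to Zap70 were Sco2, Tymp and Emid1, and the nearest to Fyn were Mettl13, Gemin5 and Meis3. Vps37b, Stk17b and Prkd2 were nearest to Lcp2, and Rara, Pim1 and Hspbap1 to Themis. Aes and Rdh11 were among the 3 nearest to Lck, and Zer1, Arhgef1 and Smap2 to Prkcq. For Lat they were Rfxank, Tnks2 and Eif2b4, for Plcg1 Akap8, Kdm1a and Paics, and for Vav1 Ube2f, Zmym2 and 1810006K21Rik. All were within 0.03, but such closeness is common over 4 libraries: 27 genes lay within 0.1 of Themis, 83 of Lcp2, 160 of Zap70 and 2198 of Lat.

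Around the 9 genes, most genes of the receptor and its partners had a log2 difference below 0 in MNU wild type. That held for 10 of 12 receptor, CD3 and coreceptor genes, 14 of 23 other kinases and adaptors and 17 of 27 inhibitors. Of all 10587 genes, 5322 were below 0. The list values that follow are as deposited, and relative to the CD3 genes every log2 difference is 0.64 higher in MNU against vehicle wild type and 0.31 lower in MNU against vehicle knockout, so that list medians between -0.64 and 0 in the first turn positive and most of those in the second turn negative. Of all genes, 14.2% were at least 2-fold lower and 7.14% higher in MNU wild type, and 2.95% lower and 0.331% higher in MNU knockout. The counts of each list are read against those shares. Of 12 receptor, CD3 and coreceptor genes 2 were at least 2-fold lower and 1 was higher in MNU wild type (median log2 difference -0.61). Cd28, the costimulatory receptor, was 2.74-fold lower and the coreceptor chain Cd8b1 2.10-fold lower, while Cd4 stood at 42622 without and 21616 with MNU, just inside the line. Ptcra, whose product pairs with the beta chain before alpha is made, was 4.11-fold higher. Ptprc encodes CD45, the phosphatase that primes LCK; named for its role, outside the naming rule, it stood at 43492 without and 60342 with MNU. In the MNU knockout none of the 12 differed 2-fold (median 0.26), and Ptcra stood at 1544 without and 901 with MNU.

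Of 23 other proximal kinases and adaptors 4 were lower in MNU wild type, where 14.2% of all genes were. Only 1 was higher, where 7.14% of all genes were (median -0.19). The TEC-family kinase gene Tec stood at 1569 without and 327 with MNU. Pik3cd, a catalytic subunit of phosphoinositide 3-kinase, was 2.85-fold lower, while Pik3r1, its regulatory subunit, was 2.14-fold higher. Nck1, an adaptor to the actin machinery, was 2.32-fold lower. None of the 23 differed 2-fold in the knockout (median 0.18), where Pik3r1 stood at 8815 without and 5701 with MNU.

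Of 27 inhibitors of proximal signalling 2 were lower in MNU wild type, where 14.2% of all genes were. Another 2 were higher, where 7.14% of all genes were (median -0.23). Dgka, which removes diacylglycerol, stood at 16412 without and 2340 with MNU, and Cd5, an inhibitory surface receptor whose level follows receptor signal strength in thymocytes, at 7081 and 1476. Ptpn22, a phosphatase that acts on LCK and ZAP-70, was 2.59-fold higher, and Spry1 2.84-fold higher. Csk, the kinase that holds LCK inactive and named for that role, stood at 9669 without and 8670 with MNU. None of the 27 differed 2-fold in the knockout (median 0.18), where Spry1 stood at 815 without and 412 with MNU, just inside the line.

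The arms downstream had members past 2-fold in MNU wild type at shares that are read against 14.2% of all genes lower and 7.14% higher. In the calcium and NFAT arm 2 of 19 were lower and none was higher (median -0.33), with the calcineurin subunit gene Ppp3ca at 1167 without and 382 with MNU and the calcium channel gene Itpr1 2.38-fold lower. In the RAS and ERK arm 3 of 19 were lower and none was higher (median -0.19). Those were Rasgrp2, at 3723 and 858, Rasgrp1, the diacylglycerol-gated RAS activator of thymocytes, at 20174 and 7825, and Rasal3, at 16282 and 6126. In the NF-kB arm 3 of 15 were lower and 1 was higher (median -0.08), with the subunit gene Rel at 424 and 115, the inhibitor gene Nfkbia 2.45-fold lower and the ubiquitin ligase gene Traf6 2.42-fold higher. None of these genes differed 2-fold in the MNU knockout, and the medians there were 0.04, 0.05 and 0.13.

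**Figure D5:**
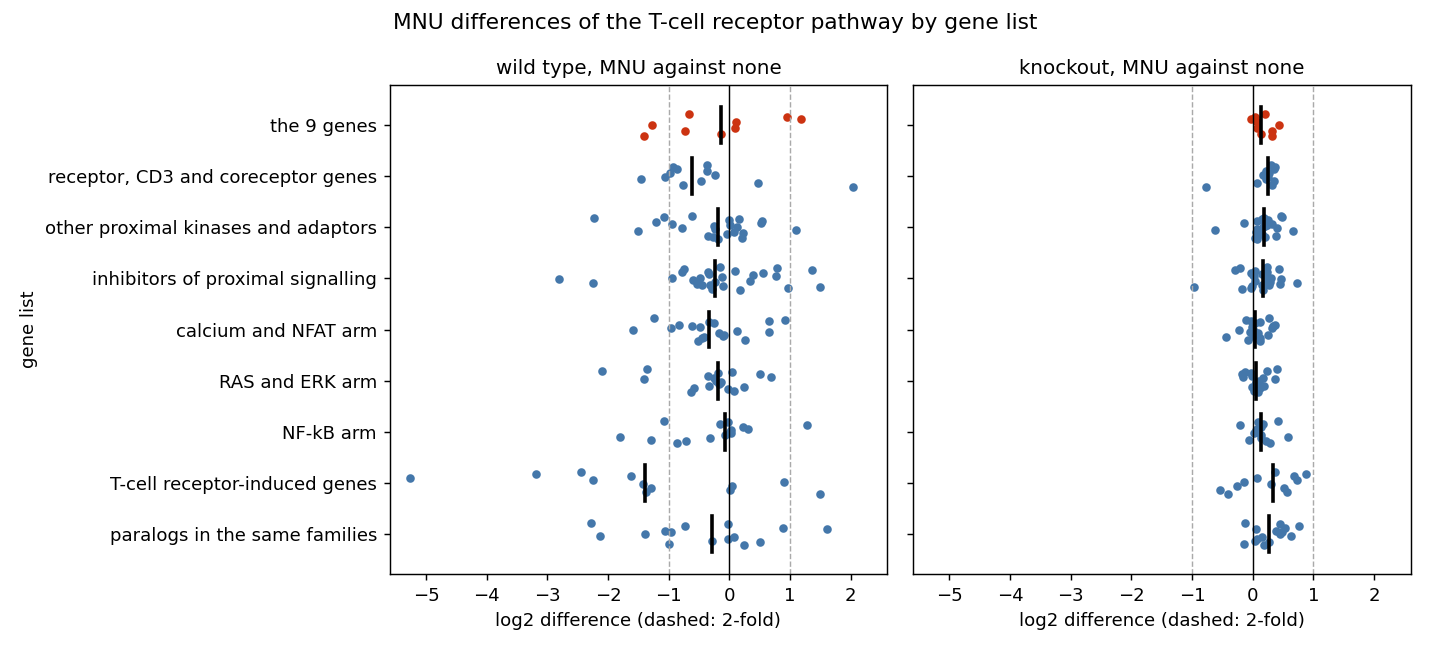
Log2 differences with MNU in wild type (left) and knockout (right), 1 point per gene, for the 9 genes (red) and 8 lists of related genes (blue), with list medians as black bars and dashed lines at 2-fold. In the knockout every point lies inside 2-fold, and in wild type the list of T-cell receptor-induced genes has the lowest median (-1.40).

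Genes that T-cell receptor signals induce had the lowest median of the 8 related lists in MNU wild type (-1.40). Of these 12 genes 8 were lower and 1 was higher, where 14.2% and 7.14% of all genes were. Cd69, an early activation marker, stood at 1980 without and 41.7 with MNU, and the transcription factor genes Egr2 and Egr1 at 731 and 71.4 and at 4313 and 785. The 1 gene counted as higher was Bcl2l11, a pro-apoptotic BCL2-family gene outside the naming rule, at 3066 and 8652. In the MNU knockout none of the 12 differed 2-fold (median 0.33). In vehicle knockout against vehicle wild type 1 of 12 was lower, where 0.359% of all genes were. That gene was Nr4a1, at 4126 in wild type and 1758 in knockout.

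Paralogs from the families of the followed genes were also read, and only some of them are B-cell and myeloid counterparts. Of 15 measured paralogs 4 were lower and 1 was higher in MNU wild type (median -0.28), where 14.2% and 7.14% of all genes were. Plcg2, the B-cell and myeloid phospholipase, stood at 858 without and 188 with MNU, and Blnk, the B-cell counterpart of Lcp2, at 483 and 178. The kinase gene Src stood at 872 and 171. Blk, a Src-family kinase of B cells, was higher, at 254 without and 796 with MNU. In MNU knockout against vehicle wild type 3 of the 15 were higher, where 1.57% of all genes were. Among them were Blk and Blnk, at 575 and 1037 against 254 and 483. A list of 11 B-cell and myeloid counterparts, which overlaps the paralogs, had a median of -0.73 in MNU wild type and 0.45 in MNU knockout.

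Markers of other cell types differed between the libraries too, not always in the direction of the relatives. The 7 measured B-cell markers, with Ms4a1 among them, summed to 3200 normalised counts in vehicle wild type, 1319 in MNU wild type, 4834 in vehicle knockout and 8463 in MNU knockout, and Ms4a1 was at 10.1 in MNU wild type. Of the 7, 6 were at least 2-fold lower in MNU than in vehicle wild type (median log2 difference -3.41), whereas Blk was higher. Of all genes, 14.2% were at least 2-fold lower and 7.14% higher in that comparison. The 8 myeloid and dendritic markers summed to 20894, 30995, 32130 and 41502 in the same order, and the 7 markers of NK cells, which also use Lck, Zap70 and Lat, to 3828, 3511, 6714 and 7108. In MNU against vehicle wild type, 2 of the 8 myeloid and dendritic markers were at least 2-fold higher and 1 was lower (median 0.59). The sum of the NK markers was nearly level between those libraries, but 4 of the 7 were at least 2-fold lower and 1 was higher (median -3.37). Adipocyte markers (10 measured) summed to 68676, 15057, 67618 and 24458, and erythroid markers (4 measured) to 59419, 36456, 20136 and 42920. No B-cell, myeloid or NK marker was listed at 0 in any library. The part of these cells in the values of the 9 genes was not tested.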

How the data were processed

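Thymus RNA of 4 groups, 1 library each, was prepared with a TruSeq kit from total RNA, per the labels' protocols. Per the submitters' processing notes, the tools included TopHat2 2.0.8b and edgeR and the build was mm9, with no roles stated. The sources used here name no counting tool, annotation or normalisation method. The authors deposited a normalised signal per gene symbol, called normalised counts per the file headers. The values are not whole reads, so no count model or counting interval was used, and counting precision is not given. Values were used as deposited, 10 was added, log2 was taken (which understates differences of low genes), and a mean of 10 or more was required, which removed 11 genes. Fold differences of single genes are ratios of the deposited values. Python 3.11.15, numpy 2.4.6 and pandas 2.3.3 were used, and the 2-fold rule was checked on simulated counts.

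The 9 genes and all lists were chosen with earlier results of these data known. All 9 are named, with up to 4 genes per list that differed most in MNU wild type, up to 2 that differed most in the knockout comparisons and the 3 nearest profiles; others were chosen after their values were seen and are said to be so. Some genes that the rule names are not reported here. Pdk1, Adap1 and Fgd2 were taken out of the lists after values were seen, since they had been listed under a wrong alias or had no place in the pathway. Exon lengths come from GENCODE M21 and promoters from RefSeq on GRCm38.p6, a different build from mm9, so no gene coordinates are given for the table. Alternatives were 2 other pseudocounts, 2 other filters, 3 scalings, a 4-fold line and subtraction of the wild-type MNU share with rescaling of the remainder.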

Additional observations from a re-analysis of the deposited data

Results flagged for a closer look

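For 6 of the 9 genes the MNU difference had opposite signs in the genotypes, where 65.4% of all 10587 genes did, so the count is near the background. With 1 library per group this difference was not tested, and small values of either sign are included. The difference of the MNU changes, knockout minus wild type on the log2 scale, was 1.73 for Themis (-1.41 in wild type and 0.32 in knockout), 1.71 for Lcp2 (-1.28 and 0.43), 1.05 for Prkcq (-0.73 and 0.32), 0.86 for Lck (-0.67 and 0.19) and 0.28 for Vav1 (-0.14 and 0.14). It was -1.20 for Zap70 (1.17 and -0.03). Each knockout value uses the vehicle knockout library, in which 42 genes held a median of 15.4% of their MNU wild-type level, both taken above the baseline described earlier. MNU knockout against vehicle wild type, where genotype differs as well as MNU, gave -0.26 for Themis, -0.06 for Lck and 0.17 for Zap70. Those signs were the same as in MNU against vehicle wild type. Lcp2 (0.13), Prkcq (0.11) and Vav1 (0.07) stayed above 0, and Plcg1, at 0.09 in MNU against vehicle wild type, was at -0.02. Between these comparisons, which share vehicle wild type, opposite signs were found for 4 of the 9 and 49.6% of all genes. With the share subtracted, Zap70 was at 0.25 in the knockout.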

How the results depend on the processing

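No paired analysis was possible because each group has 1 library, and for the same reason no library could be left out within a group. Of 103 alternative counts of the 9 genes, 93 stayed within 1.5-fold of the main count. Much of that was set in advance. The 9 genes stood at 3426 or more in every library, so the pseudocounts and filters could hardly change a count. Several main counts were also 0, from which a fold is not defined. The exceptions to the 93 came from 3 settings. Relative to the CD3 genes, in MNU against vehicle wild type, 2 were higher (Zap70 and Fyn) and 0 lower. Of all genes, 27.2% and 8.40% were past the line. In MNU knockout against MNU wild type, 0 were higher and 2 lower (Zap70 and Fyn). The scaling moved every log2 difference there by -0.59, and 76.4% of all genes were lower by any amount. In the difference of MNU changes, 1 (Zap70, -2.14) passed 2. For that count and those that follow, the percentage of all genes past the line is not given. They are therefore not read as particular to the 9. Past 4-fold there were 0 higher and 0 lower in both comparisons. With upper-quartile scaling, 0 were lower in MNU knockout against MNU wild type. No gene counted as past 2-fold changed sign under any alternative run. With the share subtracted from the vehicle knockout library, none of the 9 reached 2-fold in the comparisons that use it. The use of wild type or MNU knockout in place of that library was added after the data were examined, and none reached 2-fold there either. Animal-to-animal spread and counting error are unknown and limit every value.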
